A study of Danio rerio with 6 samples.

Results

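Of the 21860 genes measured in sorted zebrafish brain macrophages, 10 had signal that was lower at each of 2 steps, from control to csf1ra-/- and again from csf1ra-/- to csf1ra-/-;b+/-. They are scn4bb, ppfibp1a, hspg2, h1m, slc4a2b, sptbn5, slc36a4, hecw2b, il1rapl1a and frmpd3. A gene was chosen when its lower control library was at least 1.5 times its higher csf1ra-/- library, its lower csf1ra-/- library was at least 1.5 times but under 4 times its higher csf1ra-/-;b+/- library, and its mean control signal was at least 20. Genes with no name, with a clone-style name holding a colon or dot, or of 14 name families such as chemokines, ribosomal proteins, integrins and collagens had been set aside by name. Since all 6 libraries took part in this choice, the levels and differences of the 10 genes are given below as a description, without a test.

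The 6 libraries fall into 3 groups of 2. Control fish were wild type, with 0 mutant receptor copies. The csf1ra-/- fish carried 2 mutant csf1ra copies, while the genotype csf1ra-/-;b+/-, here the compound mutants, has 1 mutant csf1rb copy besides. Their library names could be taken to mean that both receptors are lost, and the stated genotype was followed. All fish were of the mpeg1-GFP line on a TLF x AB background and 9 to 12 months old, and GFP-positive brain cells were sorted after trypsin treatment and a Percoll gradient. The reporter marks macrophages, which include microglia. Whether replicates are separate fish, pools or repeats is not stated, so p-values rest on a spread between libraries that may be technical only.

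The csf1ra and csf1rb genes are a duplicated pair encoding receptor tyrosine kinases. Their ligands, interleukin 34 and colony-stimulating factor 1, are needed by microglia for their formation and upkeep. In mammals a single CSF1R gene fills this role, and its loss removes most microglia. The 10 genes are not known as a pathway. They encode a sodium channel subunit, membrane transporters, adhesion and matrix proteins, membrane scaffolds, a ubiquitin ligase and a linker histone.

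Total reads over the table ranged from 4241988 to 15011963 per library, lowest in control replicate 1 and highest in compound mutant replicate 1. Despite the most reads, compound mutant libraries had the fewest genes with a read, 18383 (replicate 1) and 18047 (replicate 2). Control replicate 1 reached 21452 such genes and replicate 2 reached 20723, against 20971 and 20119 with csf1ra-/-. Replicates correlated least among controls (Spearman 0.672), then csf1ra-/- (0.731), and most among compound mutants (0.827). What part these library-wide differences have in the fall of the 10 genes was not tested. Signal is the number of reads over an effective library size chosen by the authors, and 1 read was worth 0.0809 to 0.157 units. Control replicate 1 stood apart in this scaling, with an effective size 1.73 times its total reads, against 0.802 to 1.07 in the others. The macrophage markers mpeg1.1, apoeb, c1qa and ptprc were present in every library, mpeg1.1 from 618 to 3757 units. By contrast mpeg1.2 had 13.1 and 1.98 units in control and 0 and 0.276 in compound mutants. Of 40 microglia and macrophage markers, 17 had both compound mutant libraries above both control libraries and 10 the reverse. Over all genes these shares were 24.7% and 34.2%. The mutated genes were read as well: csf1ra had 37.7 and 67.9 units in control libraries, 42.6 and 24.3 with csf1ra-/-, and 18.5 and 7.73 with the compound genotype. For csf1rb these levels were 901 and 1356, 1432 and 783, and 329 and 173 units. Neither met the rule, and since the kind of mutation is not in the labels, RNA levels are no check of the genotypes. In such sorted pools, fewer cells of a type and less RNA per cell cannot be told apart.

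Few genes met both steps. Of 4162 genes with a mean control signal of at least 20, 228 met the first step. A second ratio of at least 1.5, with the first step not required, was found in 352. Both steps were met by 46, and 19 of these stayed under the upper limit of the second step. That is a background of 0.457%, and 3.56% of the 4162 genes had all control libraries above all csf1ra-/- libraries and these above all compound mutant libraries. Name filters then left 10 of 3248 named genes, or 0.308%. The 9 genes set aside comprised 8 with a clone-style name and 1 with none, and their mean control signal ran from 20.5 to 160 units. The reverse pattern, under the same thresholds and with a mean compound mutant signal of at least 20, was met by 137 of 5755 genes, 94 of them with a kept name.

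**Figure D1:**
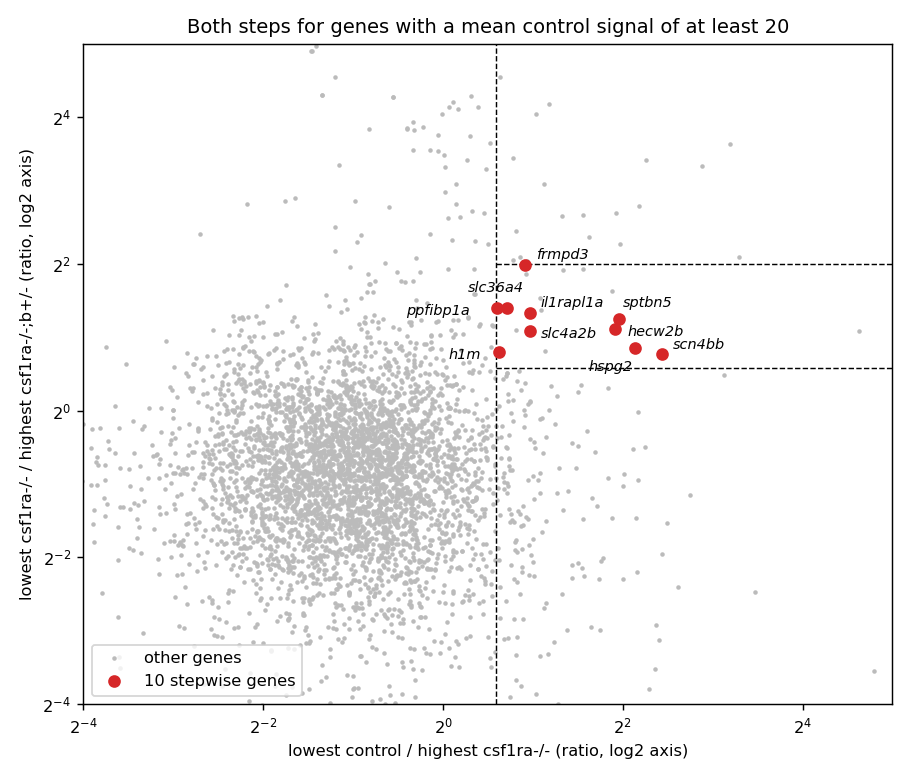
Ratio of the lowest control to the highest csf1ra-/- library (x axis) against the ratio of the lowest csf1ra-/- to the highest compound mutant library (y axis), on log2 axes, for 4059 of the 4162 genes with a mean control signal of at least 20; 103 lie outside the axes or have a library at 0. Dashed lines mark the thresholds of 1.5 and 4, the red points are the 10 stepwise genes, and the grey points inside the box are genes set aside by name.

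The plot of both ratios shows which of them was the larger in each gene, though the rule sets an upper limit on the second ratio only. The first ratio exceeded 3 in scn4bb (5.39), hspg2 (4.41), sptbn5 (3.89) and hecw2b (3.76), and in these 4 it was larger than the second. In the other 6 genes the second ratio was the larger, up to 3.97 in frmpd3. The order depends on the measure: by group means hecw2b fell 5.69 times in the first step and 7.57 times in the second. The medians over the 10 genes were 1.96 for the first ratio and 2.27 for the second.

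**Figure D2:**
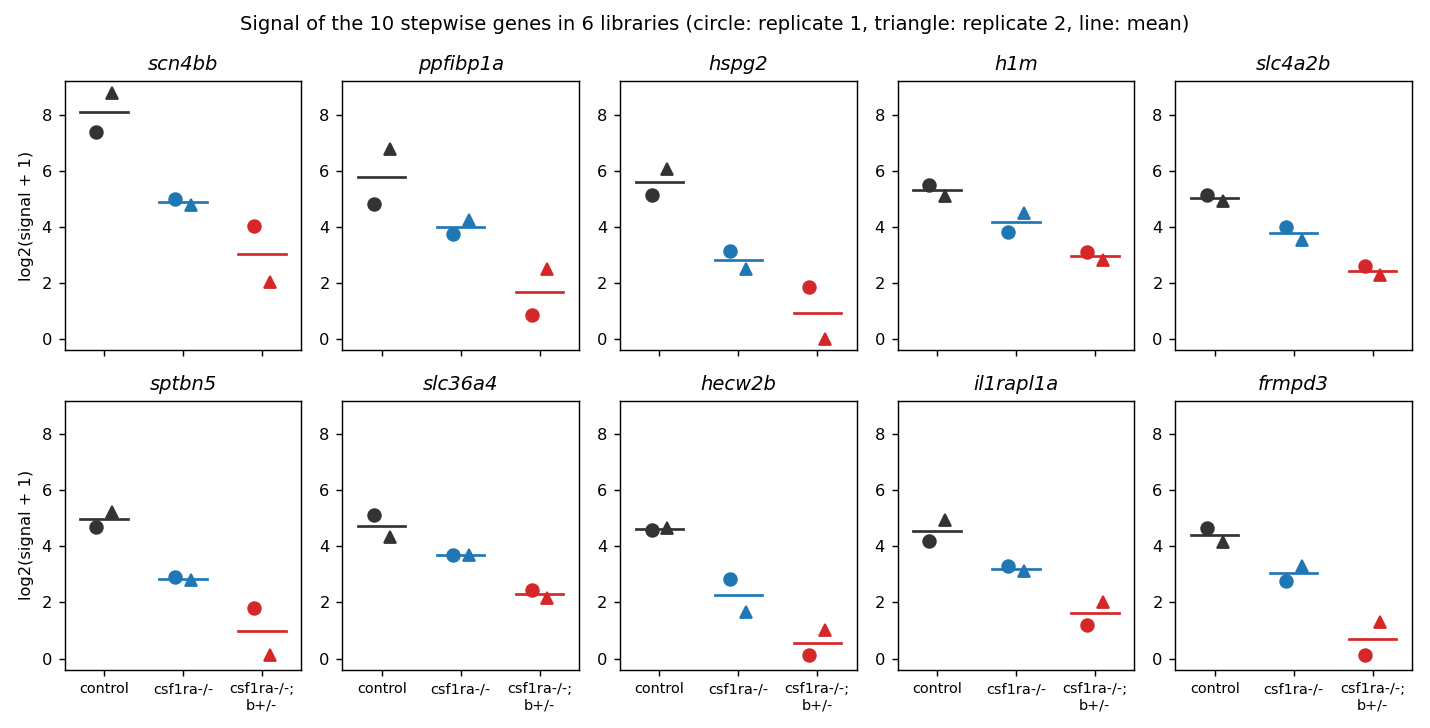
Signal of the 10 stepwise genes on a log2(signal + 1) scale (y axis) in the 3 groups (x axis); circles are replicate 1, triangles replicate 2 and lines group means of 2 libraries. In each gene both control points lie above both csf1ra-/- points and these above both compound mutant points, as the rule requires, while the distance between compound mutant points differs widely between genes.

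Among membrane channel and transport proteins, scn4bb had the highest signal of the 10 genes. This gene (ENSDARG00000060319) encodes a beta subunit of voltage-gated sodium channels, a single-pass protein that in mammals tunes channel gating. Its signal was 166 and 438 units in control, then 30.9 and 26.3 in csf1ra-/-, then 15.5 and 3.13 in compound mutants. The control libraries differed by 2.63 times and the compound mutants by 4.94 times, while those of csf1ra-/- differed by 1.17 times. Mean signal was 10.6 times lower in csf1ra-/- than in control and a further 3.08 times lower in compound mutants. On the log2(signal + 1) scale the differences were -3.20 ± 0.77 (SE, n = 2 per group) and -1.84 ± 0.77. Each SE in this report comes from a model of all 6 libraries with a spread shared by the 3 groups. That spread is also drawn towards a trend with signal over all genes tested. It is thus not the spread of the gene's own libraries alone, and similar SEs do not mean that libraries agreed similarly. In control, scn4bb ranked at the 98.5 and 98.9 percentiles of all genes in the table, against 69.5 and 46.9 in compound mutants.

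The transporter genes slc4a2b and slc36a4 had libraries of a group close together in both mutant groups. Anion exchanger 2, which slc4a2b (ENSDARG00000052330) encodes, swaps chloride for bicarbonate across the plasma membrane and so takes part in pH control. Its signal stood at 34 and 29.5 in control, then 15.1 and 10.7 in csf1ra-/-, then 5.02 and 3.87 in compound mutants. Libraries of a group differed by at most 1.41 times, less than either step, which were 1.96 and 2.13. For slc36a4 (ENSDARG00000039661), an amino acid transporter gene of the SLC36 family whose mammalian relative carries proline and tryptophan, control had 33.7 and 19.4 units. Both csf1ra-/- libraries read 11.8, and the compound mutants 4.45 and 3.50. Mean signal of slc4a2b was 7.15 times, and of slc36a4 6.68 times, lower in compound mutants than in control. The log2 differences between these groups were -2.59 ± 0.72 for slc4a2b and -2.43 ± 0.74 for slc36a4 (SE, n = 2 per group).

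Adhesion, matrix and synaptic organiser genes formed a further group of 3. Perlecan, the heparan sulfate proteoglycan encoded by hspg2 (ENSDARG00000076564), is a core part of basement membranes and binds growth factors. Its signal was 34 and 65.5 in control, then 7.72 and 4.70 in csf1ra-/-, then 2.59 and 0 in compound mutants. The 0 of compound mutant replicate 2 allows up to 0.276 units, the worth of 3 reads, taken throughout as the limit that a count of 0 allows. Mean signal was 8.01 times lower in csf1ra-/- than in control and 38.4 times lower in compound mutants.

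Liprin beta 1, the product of ppfibp1a (ENSDARG00000045749), belongs to a family of scaffolds that bind receptor tyrosine phosphatases at adhesion sites and synapses. It had 27.1 and 108 units in control, then 12.4 and 17.9 in csf1ra-/-, then 0.809 and 4.70 in compound mutants. Control replicate 2 was 3.97 times replicate 1, and the lower of them exceeded the higher csf1ra-/- library by only 1.51 times. For il1rapl1a (ENSDARG00000062045) control had 17.1 and 29.4 units, csf1ra-/- 8.77 and 7.68, and compound mutants 1.29 and 3.04. Its product is a relative of the interleukin 1 receptor accessory protein, and in humans its counterpart organises synapses and is mutated in an X-linked intellectual disability. Mean signal in compound mutants was 24.5 times below control for ppfibp1a and 10.7 times below for il1rapl1a. In log2(signal + 1) the difference from control was -4.10 ± 0.90 for ppfibp1a, -2.95 ± 0.80 for il1rapl1a and -4.67 ± 0.90 for hspg2 (SE, n = 2 per group).

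The membrane scaffold genes sptbn5 and frmpd3 were nearly undetected in 1 compound mutant library each. A beta spectrin of the membrane skeleton is encoded by sptbn5 (ENSDARG00000097683). Its signal was 25 and 36.3 in control, then 6.43 and 5.96 in csf1ra-/-, then 2.51 and 0.0921 in compound mutants, the last being 1 read. The FERM and PDZ domain protein gene frmpd3 (ENSDARG00000074865) had 24.1 and 16.8 units in control, then 5.85 and 8.94 in csf1ra-/-, then 0.0809 and 1.47 in compound mutants. Here the single read was in replicate 1, so the libraries that were nearly empty were different ones. The compound mutant libraries thus differed by 27.2 times for sptbn5 and 18.2 times for frmpd3, on 1 against 31 and 16 reads.

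The remaining genes act inside the cell. HECT-type ubiquitin ligases of the NEDD4 family, which mark proteins for breakdown or sorting, include the product of hecw2b (ENSDARG00000063253). Control libraries agreed closely at 22.9 and 24.2 units, csf1ra-/- had 6.08 and 2.2, and compound mutants 0.0809 and 1.01. Its mean was 43.0 times lower in compound mutants than in control, the widest gap of the 10 genes, but on only 12 reads over both compound mutant libraries. The linker histone gene h1m (ENSDARG00000102892) encodes a form known in zebrafish from eggs and early embryos, and it had the narrowest gap, at 5.77 times. Its signal was 44.3 and 33.6 in control, then 13.1 and 21.8 in csf1ra-/-, then 7.53 and 5.99 in compound mutants. The log2 differences in compound mutants against control were -4.06 ± 0.86 for hecw2b and -2.36 ± 0.69 for h1m (SE, n = 2 per group).

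Over the 10 genes, reads per library ran from 126 to 3543 in control, from 14 to 264 in csf1ra-/- and from 0 to 191 in compound mutants. Since the rule already asks for separated libraries, counting error matters most where reads are few. In the second step exact 95% Poisson intervals overlapped in hspg2, with 3.17 to 6.72 units in csf1ra-/- replicate 2 and 1.77 to 3.66 in compound mutant replicate 1, and hecw2b, with 1.2 to 3.68 and 0.506 to 1.81 in csf1ra-/- replicate 2 and compound mutant replicate 2. These intervals cover counting error only and do not hold the spread between libraries.

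No single library was the low one throughout. Control replicate 1 was above replicate 2 in 4 of the 10 genes, csf1ra-/- replicate 1 was above replicate 2 in 7, and compound mutant replicate 1 was above replicate 2 in 6. In compound mutants scn4bb, hspg2, h1m, slc4a2b, sptbn5 and slc36a4 were higher in replicate 1, whereas ppfibp1a, hecw2b, il1rapl1a and frmpd3 were higher in replicate 2. Within control the ratio of the higher to the lower library had a median of 1.58 over the genes, and within csf1ra-/- of 1.43. Within compound mutants its median was 4.94 over the 9 genes with reads in both libraries.

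**Figure D3:**
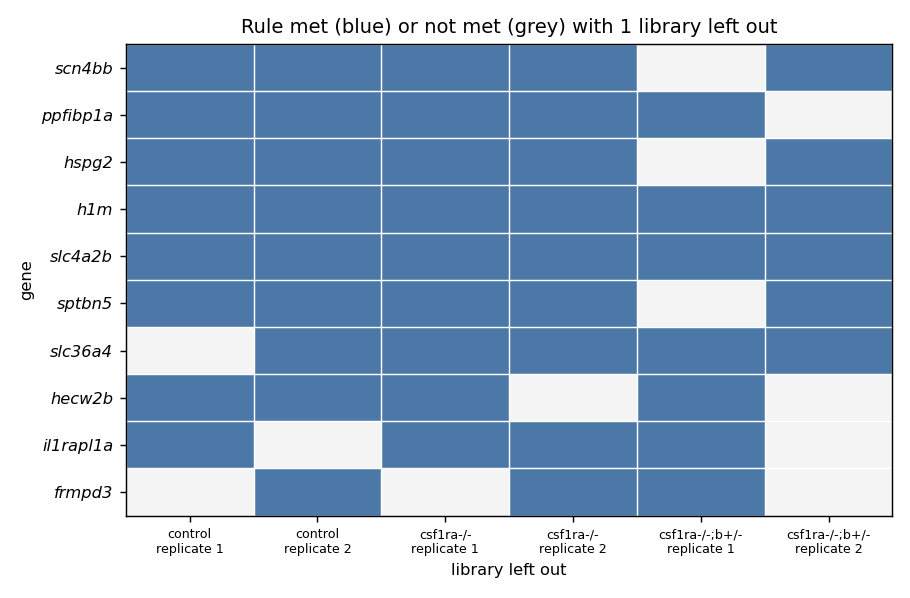
The 10 stepwise genes (y axis) and the library left out (x axis), with blue where the remaining 5 libraries still met the rule and grey where they did not. Only h1m and slc4a2b are blue in all 6 columns, and compound mutant replicate 2 has the most grey cells, 4. Leaving out a library cannot lower a step ratio, so grey marks only the upper limit of the second step or the minimum control signal.

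Each of the 6 libraries was left out in turn. Each step compares the lowest library of a group with the highest of the next. Leaving out a library can therefore only raise or keep a step ratio, and no gene could fall below the minimum of a step. Only the upper limit of the second step and the minimum control signal could be failed. Whether a fall rests on 1 library thus cannot be read from these omissions. With the other 5 libraries, 2 of the 10 genes, h1m and slc4a2b, met the rule in every case, which does not show firmer steps in them. Without compound mutant replicate 2, ppfibp1a, hecw2b, il1rapl1a and frmpd3 exceeded the upper limit of 4 in the second step, and without replicate 1 scn4bb, hspg2 and sptbn5 did. Without control replicate 1 the mean control signal of slc36a4 and frmpd3 was under 20, as was that of il1rapl1a without control replicate 2. Leaving out csf1ra-/- replicate 1 took frmpd3, and replicate 2 took hecw2b, above the same upper limit.

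Values near the thresholds show how close the neighbours were. At the first step h1m (1.54) and ppfibp1a (1.51) lay just inside, and trove2 (1.45), lrrk2 (1.39) and jarid2b (1.35) just outside. Another gene inside was slc36a4 at 1.64. At the second step scn4bb (1.70), h1m (1.74) and hspg2 (1.82) lay inside, and snx33 (1.46), tnc (1.40) and pdgfba (1.39) outside. Above its upper limit were nrp1a (4.26), SNORA81 (5.17) and igf2bp1 (6.30), while frmpd3 (3.97), slc36a4 (2.64) and ppfibp1a (2.64) stayed under it. In mean control signal frmpd3 (20.4), il1rapl1a (23.3) and hecw2b (23.5) were kept, and cpt1b (19.1), sox6 (18.0) and cacng8b (16.9) were not. Among these outside genes pdgfba, which encodes a platelet-derived growth factor chain, had the highest signal, with 353 and 531 units in control, then 217 and 106 in csf1ra-/-, then 75.8 and 38.4 in compound mutants. In lrrk2, a kinase gene linked to Parkinson disease in humans, libraries of a group lay close, at 59.7 and 73.6, 43.0 and 42.3, and 19.4 and 25.8 units in the same order.

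**Figure D4:**
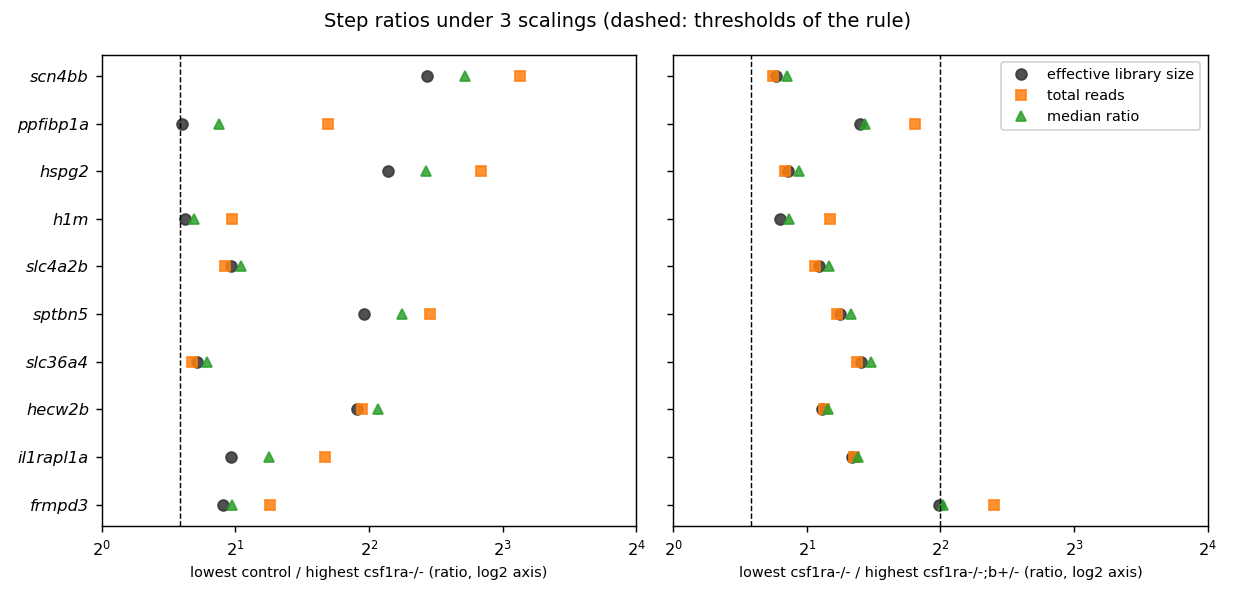
Step ratios of the 10 stepwise genes (y axis) under 3 scalings, with the first step on the left and the second on the right (x axes, log2). Each gene stays above 1.5 in both steps under each scaling, and frmpd3 passes the upper limit of 4 in the second step on total reads and by median ratio.

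The ratios moved with the scaling. Scaled by total reads alone, the first ratio ranged from 1.59 to 8.77 over the 10 genes, and by median-ratio size factors from 1.61 to 6.58. The second ratio ranged from 1.68 to 5.27 and from 1.80 to 4.06. Under both scalings 9 of the 10 genes met the whole rule, with frmpd3 over the upper limit at 5.27 and 4.06. The median log2 difference of the 10 genes from control to csf1ra-/- was -1.58 against -0.03 over all 21316 genes tested. On total reads these were -2.08 and -0.45, so that the distance between them was -1.55 and -1.63. From csf1ra-/- to compound mutants the median was -1.76 against -0.17 over all genes, and on total reads -1.81 against -0.30.

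Related genes were picked by name after the values were seen and are given without a test. Of 12 other sodium channel genes, none reached a mean control signal of 20. In 9 of them both control libraries were above both compound mutant libraries, as in 38.1% of all genes with a mean control signal under 20. In 3, scn1ba, scn4ab and scn12aa, the groups stood in the same order as in scn4bb, as in 7.89% of those genes. The sister gene scn4ba had 0 and 7.04 units in control, then 1.99 and 0.470 in csf1ra-/- and 0 in both compound mutant libraries. Of 12 other SLC4 genes, slc4a1b alone had groups in this order, at 8.98 and 9.39 units in control, then 0.117 and 0.314 in csf1ra-/- and 0 in both compound mutant libraries. Its mean control signal was under 20, where 7.89% of all genes had this order. The sister gene slc4a2a was highest in csf1ra-/-, at 8.07 and 5.02 units, with 2.04 and 0.123 in control and 1.94 and 0.0921 in compound mutants.

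**Figure D5:**
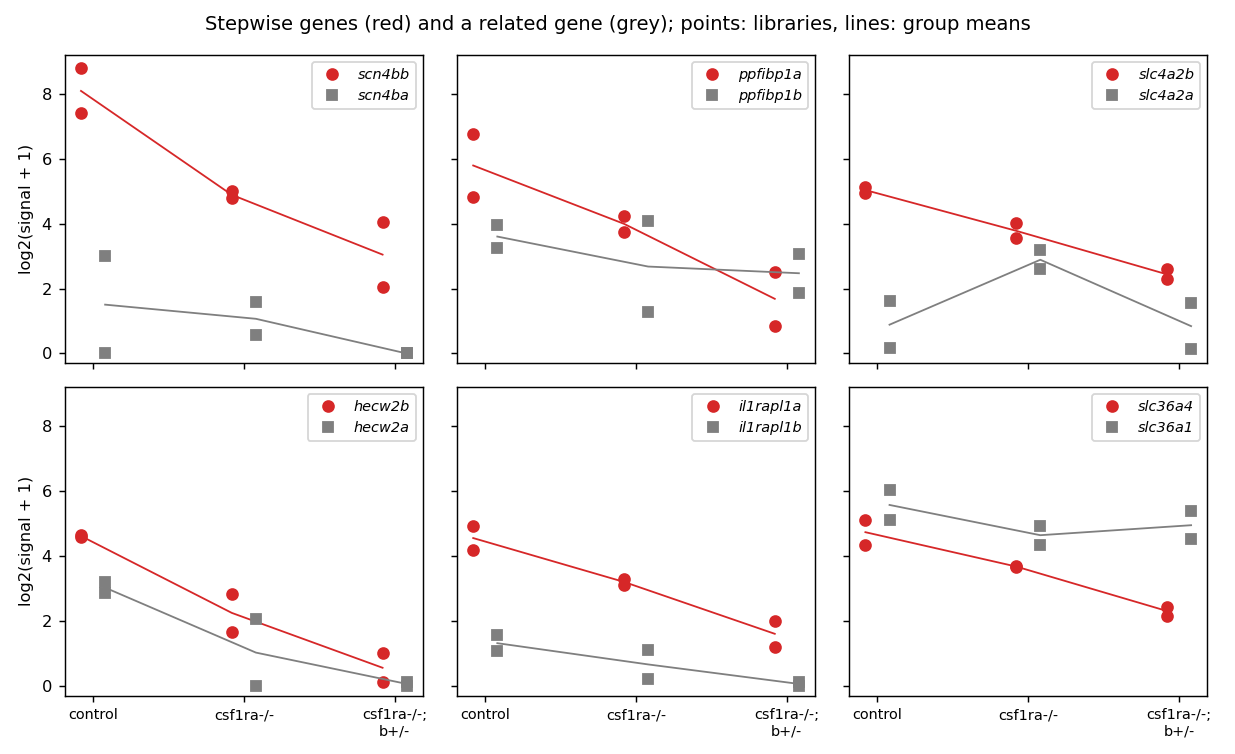
Signal on a log2(signal + 1) scale (y axis) in the 3 groups (x axis) for 6 of the stepwise genes (red circles) and a related gene each (grey squares); points are libraries and lines join group means of 2 libraries. In 5 of the 6 panels the related gene has the lower mean signal in control, and slc36a1 is the exception. The rule asked the red genes for a mean control signal of at least 20, whereas related genes had no such minimum.

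The plot of related genes shows different courses. For slc36a1, another gene of the SLC36 family, control had 33.7 and 64.2 units, csf1ra-/- 29.5 and 19.4, and compound mutants 40.6 and 21.9, so that the groups overlapped. In the liprin gene ppfibp1b only csf1ra-/- overlapped the other groups, with 8.43 and 14.6, 1.40 and 16, and 7.36 and 2.67 units. Of 6 other liprin genes, 5 had both control libraries above both compound mutant libraries, 1 the reverse, and 0 the stepwise order. All 6 had a mean control signal under 20, where 38.1% of all genes had control above compound mutants. In hecw2a the levels were 6.26 and 8.15 in control, then 3.16 and 0 in csf1ra-/-, then 0 and 0.0921 in compound mutants. In il1rapl1b they were 1.09 and 1.98, 1.17 and 0.157, and 0 and 0.0921. Of 10 other NEDD4 family ligase genes 6 had a mean control signal of at least 20, and none of the 10 had groups in the stepwise order. That order was rare among all genes too, at 3.56% of those with a mean control signal of at least 20 and 7.89% under 20. The linker histone gene h1fx had its lowest libraries in control, at 143 and 68.4 units, against 337 and 286 in csf1ra-/-, then 318 and 259 in compound mutants. The linker histone gene h1f0 had 57.7 and 69.4 units in control, then 87.2 and 178 in csf1ra-/-, then 55.6 and 46.4 in compound mutants. It was thus highest in csf1ra-/-, with control above compound mutants. Of 4 other spectrin genes, sptb, the red cell form, stood in the stepwise order, at 13.9 and 7.16, 7.02 and 4.55, and 0.405 and 0 units. All 4 had a mean control signal under 20, where 7.89% of all genes had that order.

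Of the pathway and family lists as written, solute carriers alone held any of the 10, with 297 tested genes including slc4a2b and slc36a4. The list of ubiquitin ligases and deubiquitinases held 0 of the 10, since it did not take in hecw2b. Which lists hold any of the 10 thus depends on how they were written, and this does not set solute carriers apart. In compound mutants against control, limma called 2 of them higher and 0 lower, where 0.868% of all tested genes were called higher and 0.347% lower. At an unadjusted p under 0.05, 24 were higher and 55 lower, where 11.8% of all genes were higher and 15% lower. For edgeR, 2 were higher and 0 lower, beside 0.98% and 0.694% of all genes, and for DESeq2 10 and 43, beside 5.44% and 11.5%. Those that rose were slc12a7b, a potassium-chloride cotransporter gene, with 2.72 and 1.48 units in control, then 22.0 and 12.2 in csf1ra-/-, then 110 and 80.1 in compound mutants, and slc37a2. The log2 difference was 4.96 ± 0.71 for slc12a7b and 2.64 ± 0.52 for slc37a2 (SE, n = 2 per group), with limma adjusted p of 0.0235 and 0.0496. The next by p was slc4a1b, at -3.35 ± 0.71 with an adjusted p of 0.0525, past no threshold. The list's median log2 difference was -0.57 against -0.16 over all genes. In csf1ra-/- against control limma called 0 members of the list, with 12 higher and 32 lower at an unadjusted p under 0.05, beside 5.37% and 4.8% of all genes. There edgeR called 0, beside 0.0235% of all genes higher and 0.0141% lower. DESeq2 called 3 higher and 0 lower, beside 0.807% and 0.314%, and limma called 0% of all genes in either direction. In compound mutants against csf1ra-/- limma and edgeR called 0 members, where edgeR called 0.0422% of all genes in either direction. DESeq2 called 9 higher and 7 lower, beside 2.18% and 4.29% of all genes, and 20 and 22 had an unadjusted limma p under 0.05, beside 6.44% and 6.39%. Of all genes, limma called 0% higher and 0.00938% lower in that comparison.

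Markers of other cells that the sorted pools may hold were read beside these genes, in compound mutants against control. Of all 21860 genes, 34.2% had both control libraries above both compound mutant libraries and 24.7% the reverse. Of 21316 genes tested, limma called 0.868% higher and 0.347% lower, edgeR 0.98% and 0.694%, and DESeq2 5.44% and 11.5%. At an unadjusted limma p under 0.05, 11.8% were higher and 15% lower. The stepwise order was held by 3.56% of genes with a mean control signal of at least 20 and 7.89% under 20. The counts of each marker list are to be read beside these shares. Markers in that order were 3 of 18 for muscle, 3 of 18 for meninges, fibroblasts and pigment cells, and 2 of 20 for endothelium and mural cells. For oligodendrocytes, T and natural killer cells, and red cells and thrombocytes they were 1 of 16, 1 of 15 and 1 of 9. In the other lists they were 0. Summed over 18 muscle markers, signal was 255 and 150 units in control libraries, 113 and 156 with csf1ra-/-, and 62.3 and 101 with the compound genotype. Of the 18, 9 had control above compound mutants and 3 the reverse. Limma called 2 lower and 0 higher, edgeR 4 and 0, and DESeq2 5 and 0. The fast muscle myosin genes myhz2 and myhz1.1 were the 2 called by limma (adjusted p of 0.0327 and 0.0496), with myhz2 at 30.6 and 28.2, 7.13 and 9.88, and 0.162 and 0.184 units. Without the upper limit on the second step, myhz2 met the rule. The myosin light chain gene mylpfa was lowest in control, at 3.13 and 3.21, 10.8 and 7.53, and 15.9 and 10.7 units, with the 2 mutant groups overlapping. The gene actc1b, which encodes muscle actin, was at most 1.78 in any library.

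Summed over 20 endothelial and mural markers, signal was 848 and 1409, 1273 and 981, and 880 and 766 units, of which pecam1, a gene that leukocytes also express, gave 149 and 407, 261 and 246, and 287 and 280. Of these 20 markers, 8 had control above compound mutants and 1 the reverse. Limma and edgeR called 0, with 1 higher and 4 lower at an unadjusted limma p under 0.05, and DESeq2 called 0 higher and 5 lower. The vessel markers cdh5, kdrl and tie1 were each under 10 units in every library, and vwf had 21.6 and 7.16, 6.90 and 3.61, and 0 and 0.276 units. Over 29 neuronal markers the sum was 180 and 178, 155 and 200, and 399 and 837 units. Most of the compound mutant sum was stmn1b, a microtubule regulator, at 11.6 and 24.9, 58.1 and 33.2, and 336 and 629 units. It was the single neuronal marker called by limma (log2 difference 4.67 ± 0.60, SE, n = 2 per group, adjusted p of 0.0136), and it was higher. Of the 29, 12 had control above compound mutants and 2 the reverse. Among them edgeR called 1 higher and 0 lower, and DESeq2 1 higher and 2 lower. Among defining neuronal markers snap25a and elavl4 were lower in compound mutants, at 0.971 and 3.41 and at 2.59 and 4.05 units against 16 and 6.30 and 12.1 and 16.3, while the libraries overlapped in elavl3, stmn2a and snap25b.

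Sums over 16 oligodendrocyte markers were 404 and 564, 546 and 623, and 2901 and 4546 units, with 10 of the 16 higher in both compound mutant libraries than in both controls and 2 lower. Limma called mpz, cldnk and plp1b higher and 0 lower. There edgeR called 4 higher and 0 lower, and DESeq2 8 higher and 1 lower. T and natural killer cell markers had sums of 47.7 and 52.1, 85.1 and 238, and 68.9 and 42.2 units, and 9 of 15 had control above compound mutants, with 0 the reverse. Of 18 markers of meninges, fibroblasts and pigment cells, 8 had control above compound mutants and 2 the reverse, with sums of 118 and 67.1, 73.0 and 183, and 80.5 and 60.8 units. Limma and edgeR called 0 members of the last pair of lists; at an unadjusted limma p under 0.05, 2 T and natural killer cell markers were lower and 0 higher, and 4 of the meningeal list were lower and 1 higher. DESeq2 called 1 and 5 of them lower and 0 higher, beside 11.5% of all genes lower and 5.44% higher. The remaining lists were radial glia and astroglia, B lymphocytes, neutrophils, and red cells and thrombocytes. In that order, 6 of 22, 5 of 8, 4 of 9 and 1 of 9 had compound mutants above control, and 3, 0, 2 and 5 the reverse. Limma called only the radial glia gene glulb, higher at 5.51 ± 0.59 (log2, SE, n = 2 per group, adjusted p of 0.00776). DESeq2 called 1, 1, 2 and 1 higher and 1, 0, 1 and 1 lower. What part such cells have in the levels of the 10 genes was not tested.

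The genes whose pattern was most like the mean profile of the 10, by Pearson's correlation of log2(signal + 1) over the 6 libraries, were mostly unnamed clones. The closest with a gene symbol was TENM2, a teneurin of cell adhesion annotated as 1 of many, with a correlation of 0.992. It had 22.2 and 37.8 units in control, then 5.85 and 3.14 in csf1ra-/-, then 0.486 and 0.368 in compound mutants, beyond the upper limit of the second step. The other 4 had correlations from 0.977 to 0.990, and all 5 were found among 4152 genes on 6 points that share library and depth, so these values describe likeness only.

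In gene order on the GRCz12tu assembly, which is not the build of the counts, all 10 genes were found. The protein-coding genes next to them on either side numbered 20, of which 14 were measured and 0 met both steps. Only mpzl2b, beside scn4bb, and ehd4, beside sptbn5, had a mean control signal of at least 20. For mpzl2b the levels were 63.8 and 147 in control, then 58.6 and 46.7 in csf1ra-/-, then 67.6 and 20.0 in compound mutants, and those of ehd4 overlapped between groups as well. One of the 10, frmpd3, lay on the chromosome of csf1ra, 142 protein-coding genes away, and none lay on that of csf1rb. A pair, scn4bb and h1m, shared a chromosome at 548 genes apart.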

How the data were processed

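RNA of GFP-positive brain cells was measured in 6 libraries. Per the submitters' processing notes, HISAT2, edgeR and the GRCz10 assembly were used. The sources used here do not give versions, annotation, strand or how reads were counted. The deposited signal values, headed CPM, are reads over an effective library size: 100% of values were whole multiples of the lowest value of their library within 0.001, which gave whole reads. On those reads edgeR called 8, 357 and 18 genes in csf1ra-/- against control, compound mutants against control, and compound mutants against csf1ra-/-. The 15 other columns of per-sample or group values were not used.

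The rule was applied to signal as deposited. All 10 genes passed the filter of a signal of at least 1 in 2 libraries. For lists and log2 differences with SE, limma 3.58.1 (R 4.3.3) was fitted to log2(signal + 1) of 21316 genes with 3 group means. It was run with an intensity trend, robust estimation, Benjamini-Hochberg adjustment and a threshold of 0.05. Folds of low genes are understated on this scale. Alternatives were edgeR 4.0.16 and DESeq2 1.42.0 on recovered reads, other scalings, pseudocounts, filters and thresholds, the title number as a block, and each library left out. The fit without robust estimation, the rule without its name filter and the lists of related genes were added after seeing the data. On simulated data for compound mutants against control (21015 genes), limma recovered 49 of 50 genes lowered and 50 of 50 raised by 16-fold. At 4-fold it recovered 8 and 19 of 50, and it called 9 of 20815 unchanged genes. The changed genes were drawn only from those with many expected reads, and all genes were given the same spread between libraries beyond counting error. That spread was a set value, not estimated from these data, and simulated signal was scaled by total reads. The recovery in these libraries may therefore differ. These counts are not split further by read number, and recovery at the read numbers of the 10 genes was not tested.

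Named were all 10 genes, those next to each threshold, up to 3 genes of a list with the smallest limma p, the 5 most alike genes, and related genes and defining markers picked after their values were seen. The members and lists were chosen with earlier results of these data known. Promoter and protein sequences and motifs were not analysed here.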

Additional observations from a re-analysis of the deposited data

How the results depend on the processing

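The rule is narrow, and its count moved by over 1.5 times with every setting tried but 1, the omission of compound mutant replicate 2. It was met by 10 genes as applied, 35 on total reads, 19 by median ratio, 24 with a lower minimum for both steps and 2 with a minimum of 2. It was met by 30 with a control mean of at least 10, 3 at 40, 20 without the upper limit, 19 without the name filter, and 11 to 33 with 1 library left out. Of the 10 genes, 9 remained on total reads and by median ratio, and 6 to 9 with 1 library left out. Leaving out a library cannot lower a step ratio, so genes lost that way failed only the upper limit or the minimum control signal. The number of genes called in csf1ra-/- against control was 0 by limma, with 2167 at an unadjusted p under 0.05, 8 by edgeR, 239 by DESeq2, 5 on total reads, 5 by median ratio, 3 with a pseudocount of 4, 13 among genes with at least 50 reads in 2 libraries, and 0 to 14 with 1 library left out. In compound mutants against control it was 259, with 3617 by DESeq2, 95 with a pseudocount of 0.25, 872 with at least 50 reads and 0 to 159 with 1 library left out. The 0 was reached without control replicate 1 or either csf1ra-/- library. In compound mutants against csf1ra-/- it was 2, with 18 by edgeR, 1379 by DESeq2, 27 on total reads, 5 by median ratio, 4 with a pseudocount of 4, 48 with at least 50 reads, 5 without robust estimation and 0 to 13 with 1 library left out. Of the 259 calls 185 were higher and 74 lower, against 102 and 136 on total reads, where all genes had a median of -0.72 in place of -0.16. With the title number as a replicate block the calls numbered 11, 576 and 34 in the same order of comparisons. Deviations of libraries that share a number correlated at 0.01 to 0.02 over all genes tested. That does not settle whether the numbers pair the libraries, since a pairing could act in differing directions between genes. The members' median log2 difference from control to csf1ra-/- was -1.58, with -2.08 on total reads, -1.74 by median ratio, -1.38 with a pseudocount of 4 and -2.05 to -1.52 with 1 library left out. From csf1ra-/- to compound mutants it was -1.76, with -2.29 and -0.99 at pseudocounts of 0.25 and 4 and -1.94 to -1.21 with 1 library left out. Neither median could move with the replicate block, since each title number occurs once in each group. In compound mutants against control, the median log2 difference of the microglia and macrophage markers was 0.48 and -0.22 on total reads, and that of radial glia and astroglia was 0.12 and -0.21. The other marker lists kept their sign there, with oligodendrocytes at 1.51 (2.07 as deposited), endothelium and mural cells at -1.47 (-0.89), muscle at -1.69 (-1.27, and -1.40 by median ratio), B lymphocytes at 0.36 (1.05), neutrophils at 0.054 (0.56) and meninges, fibroblasts and pigment cells at -1.39 (-1.01). Relative to the median of all genes, microglia and macrophage markers stood at 0.64 as deposited and 0.49 on total reads. Radial glia and astroglia markers stood at 0.28 and 0.51 in the same way, so neither list changed sign on that measure. Where 1 library of a group was left out, the lone library was assumed to vary like the others. The causes of these differences were not tested.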
